A study of Mus musculus with 9 samples.

Results

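Myosin light chain kinases and the targeting subunits of myosin phosphatase were followed in mouse tibialis anterior, a fast muscle of the lower leg. The members were 6 named genes, 4 kinases (Mylk, Mylk2, Mylk3 and Mylk4) and 2 phosphatase subunits (Ppp1r12a and Ppp1r12b), out of 14971 protein-coding genes listed in either of 2 deposited tables. RNA sequencing covered 9 libraries from male C57BL/6J mice, 3 per group, taken 4 weeks after treatment. Control mice are headed sham in the tables (whether they had sham surgery is not given in the sources used here), ORX mice were orchiectomised (testes removed), and ORX+DHT mice were orchiectomised and given dihydrotestosterone, a potent androgen. No transgene or deletion is named in any group, and neither the age of the mice nor the dose of the androgen is given in the sources used here. The castration contrast sets ORX against Control, the androgen contrast ORX+DHT against ORX, and the outer contrast ORX+DHT against Control. The libraries are labelled as biological replicates of bulk muscle, in which fewer cells of a type and less RNA per cell cannot be told apart.

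Muscle contracts when myosin heads pull on actin, and each myosin head carries a regulatory light chain that can be phosphorylated. Myosin light chain kinases add that phosphate. The skeletal muscle kinase is switched on by calcium, and in fast skeletal muscle the phosphate increases the force of a twitch after earlier activity. Myosin phosphatase removes it: a catalytic subunit of the protein phosphatase 1 family is held on myosin by a targeting subunit of the Ppp1r12 family. Mylk encodes the smooth muscle and non-muscle kinase, Mylk2 the skeletal muscle kinase and Mylk3 the cardiac kinase. Mylk4 encodes a less studied relative found in striated muscle. Ppp1r12a encodes the widely expressed targeting subunit MYPT1, and Ppp1r12b encodes MYPT2, typical of heart and skeletal muscle.

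Of the 6 genes, Mylk4 alone passed a test in any comparison fitted on all the libraries compared. It stood about 2.11-fold higher in ORX+DHT than in ORX muscle, while Mylk2, Mylk, Ppp1r12b and Ppp1r12a did not pass in any of the 3 comparisons. Mylk3 was nearly without reads.

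Windows around annotated start sites are shown first, because Mylk4 was the member that passed in the androgen contrast. RefSeq (GRCm38.p6) gave windows of 250 bases before to 50 after a start site for 5 of the 6 members, 7 windows in all. Capitals in them mark 5 motifs searched on both strands: AGAACA, the hexamer that the androgen receptor element repeats, CAGCTG, an E-box of the kind bound by myogenic factors, the MEF2 consensus, the CArG box and CATTCC, the MCAT element. In the Mylk window AGAACA and CATTCC overlap and appear as a single stretch of capitals. The Mylk4 window lies on the minus strand at chr13:32783915-32784214. Its RefSeq start site is 10 bases from the nearest GENCODE transcript start, that of a processed transcript and not of a protein-coding one. The Mylk window, on the plus strand at chr16:34784700-34784999, lies inside the annotated gene, at the start of a coding transcript (29 bases away). The Ppp1r12b window lies on the minus strand at chr1:134955891-134956190.
Mylk4: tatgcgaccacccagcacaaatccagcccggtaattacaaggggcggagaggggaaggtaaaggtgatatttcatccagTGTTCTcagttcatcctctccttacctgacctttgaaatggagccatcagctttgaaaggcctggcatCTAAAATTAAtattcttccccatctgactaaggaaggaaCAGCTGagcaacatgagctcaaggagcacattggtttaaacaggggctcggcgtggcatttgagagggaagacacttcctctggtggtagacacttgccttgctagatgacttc
Mylk: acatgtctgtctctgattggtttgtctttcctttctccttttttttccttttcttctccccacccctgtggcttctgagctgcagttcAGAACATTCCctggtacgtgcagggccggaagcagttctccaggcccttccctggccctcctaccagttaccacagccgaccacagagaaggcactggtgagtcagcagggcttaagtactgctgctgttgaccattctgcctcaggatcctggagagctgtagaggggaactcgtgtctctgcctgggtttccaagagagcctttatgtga
Ppp1r12b: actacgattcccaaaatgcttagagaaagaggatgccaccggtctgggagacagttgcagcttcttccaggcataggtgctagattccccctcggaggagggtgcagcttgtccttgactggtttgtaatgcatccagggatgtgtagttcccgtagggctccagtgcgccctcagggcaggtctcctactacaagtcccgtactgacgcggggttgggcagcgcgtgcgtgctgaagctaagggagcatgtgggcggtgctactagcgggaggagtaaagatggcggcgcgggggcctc

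The Mylk4 window held the hexamer (as TGTTCT, bases 80 to 85 of the printed strand), a MEF2 match (148 to 157) and CAGCTG (187 to 192). Over all 32851 windows, AGAACA on either strand occurred in 19%, CAGCTG in 16.3%, the MEF2 consensus in 1.86%, the CArG box in 1.63% and CATTCC in 14.7%. The Mylk window, at an internal start of a gene that did not pass, also held AGAACA (bases 89 to 94). The printed Ppp1r12b window held 0 matches to these motifs, and a further Ppp1r12b window at an internal start (chr1:134803793-134804092) held CATTCC 3 times. The full element, AGAACA and TGTTCT with 3 bases between, was found in 3 windows of all genes (0.00913%) and in 0 windows of the members. A match is a string of letters and not a measured binding site.

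Mylk4 (ENSMUSG00000044951) lies on chromosome 13, from 32700834 to 32783954 on the minus strand of GRCm38 in GENCODE release M21. Its levels, as normalised counts (reads divided by 1 scaling factor per library, all 9 libraries scaled together), were 1688, 3770 and 3136 in Control replicates 1, 2 and 3. They were 2620, 2132 and 1921 in ORX and 4971, 4101 and 4926 in ORX+DHT. Every ORX+DHT library stood above every ORX and every Control library, whereas ORX and Control libraries overlapped because Control 1 was the lowest of all 9. The means were 2865 ± 1067 for Control, 2224 ± 359 for ORX and 4666 ± 489.8 for ORX+DHT (SD, n = 3). The SD was 37.3% of the mean in Control against 1.95% expected from counting reads, so nearly all of it lay between the libraries and not in the depth.

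In the androgen contrast, the log2 fold change of Mylk4 was 1.08 (SE 0.10, 95% interval 0.86 to 1.30, limma adjusted p 2.89e-06). Here 4.08% of all 8770 tested genes were called at an adjusted p under 0.05 and 2.38% were called higher, and 1 of the 5 members tested was, with 14.3% of all genes and that 1 member at an unadjusted p under 0.05. Groups without overlap were found for 1 of 5 members and 19.5% of all genes. Mylk4 was also the 1 member called by edgeR and by DESeq2, which called 4.17% and 2.55% of all genes. Among the 209 genes called higher, Mylk4 ranked 42 by log2 fold change but 4 by the gain in normalised counts, behind Acta1, Myh1 and Tnni2, which encode the skeletal actin, a fast myosin heavy chain and a fast troponin. Leaving out any of the 6 libraries in turn gave log2 fold changes of 0.97 to 1.20 (highest limma adjusted p 8.22e-05). A shared spread over all 9 libraries gave the highest adjusted p of any alternative, 0.0289, in a fit that called 1.44% of genes.

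Marker lists of the fibre types and of other cell types were read in the same libraries. In the androgen contrast 2 of 5 tested fibroblast markers fell, Col1a1 (log2 fold change -1.18) and Lum (-1.79), beside 1.7% of all genes called lower. Limma did not call Col3a1 (-0.46), and Dcn (-0.05) and Pdgfra (0.06) hardly moved. The summed level of the 5 came mostly from Col1a1 and Col3a1. It was 1352 to 2729 normalised counts in Control, 2876 to 3841 in ORX, but 1700 to 2388 in ORX+DHT. Slow fibre markers fell in 1 of 3 tested genes, Myl3. Their sums, mostly of Myl3 and Atp2a2, were 200.1 to 326, 271 to 311 and 155 to 232 in the same order. Smooth muscle and pericyte markers were called in 0 of 8 genes by limma (5 at an unadjusted p under 0.05, beside 14.3% of all genes). Of these 8, 7 had log2 fold changes above 0, and Acta2 had -0.06. Their sums, with Rgs5 as the largest part, were 1246 to 1380, 1321 to 1408 and 1557 to 1644. Sums of Schwann cell markers were 94.0 to 99.3, 135 to 155 and 91.2 to 128, and 0 of 2 tested genes were called by limma (1 at an unadjusted p under 0.05). Endothelial sums were 649 to 847, 670.0 to 847 and 843 to 960.0, and macrophage sums 46.4 to 74.9, 61.4 to 116 and 68.6 to 99.8. Of the tested genes 0 of 6 and 0 of 3 were called by limma (2 and 0 at an unadjusted p under 0.05). Fast fibre sums were 253153 to 280437, 224019 to 232993 and 222941 to 237800, and ORX and ORX+DHT overlapped for these last 3 lists. Myh1 and Tnni2 rose all the same (2 of 8 fast fibre genes, beside 2.38% of all genes called higher). No marker listed in both tables was at 0 in all 9 libraries. The part of these differences in the Mylk4 result was not tested.

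In the castration contrast, Mylk4 had a log2 fold change of -0.30 (95% interval -0.86 to 0.26, limma adjusted p 0.81) and did not pass. Of 8631 tested genes 0.0579% were called by limma, 0.0695% by edgeR and 0.324% by DESeq2, and 0 of 5 members were by any of them. At an unadjusted limma p under 0.05 there were 0 members and 7.21% of all genes, and the groups did not overlap for 0 members and 14.3% of all genes. The value depended on which Control library was in the fit. Without Control 1 the log2 fold change was -0.64 (limma adjusted p 0.0256), in a fit that called 0.592% of genes. Without Control 2 it was -0.06 and without Control 3 -0.20, with adjusted p of 0.951 and 0.831.

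In the outer contrast, the log2 fold change of Mylk4 was 0.78 (95% interval 0.22 to 1.33). The unadjusted limma p was 0.0102 and the adjusted p 0.736, so it did not pass over all genes, although the groups did not overlap. Over the 8595 genes tested, 14% had groups without overlap and 6.48% an unadjusted p under 0.05, as did 1 of 5 members, Mylk4. The share called was 0.0349% by limma, 0.0465% by edgeR and 0.151% by DESeq2, and 0 of 5 members were called by any of them. Without Control 1 the log2 fold change was 0.43 and passed narrowly (limma adjusted p 0.0498), in a fit that called 0.768% of genes.

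Control 1 differed from the other controls along transcript length. Its median log2 difference from Controls 2 and 3 was 0.54 over the 2156 genes with the shortest coding transcripts (360 to 2127 bases) and -0.41 over the 2155 with the longest (4962 bases or more), while medians of the other 8 libraries against the rest lay within -0.13 to 0.09 in these and the middle length classes. In the middle classes the median of Control 1 was 0.08 (2128 to 3363 bases, the class of Mylk2) and -0.17 (3364 to 4961 bases). All 5 measured members were lower in Control 1 than in the mean of Controls 2 and 3. Mylk4 was at 48.9%, Ppp1r12b at 65.8%, Ppp1r12a at 78.7%, Mylk at 81.8% and Mylk2 at 82.1% of it. A correction for transcript length, chosen after the data were seen, left Mylk4 at a log2 fold change of -0.37 in the castration and 0.67 in the outer contrast (limma adjusted p 0.446 and 0.162). In the androgen contrast, which does not use Control 1, it was 1.04 (adjusted p 4.19e-07).

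**Figure D1:**
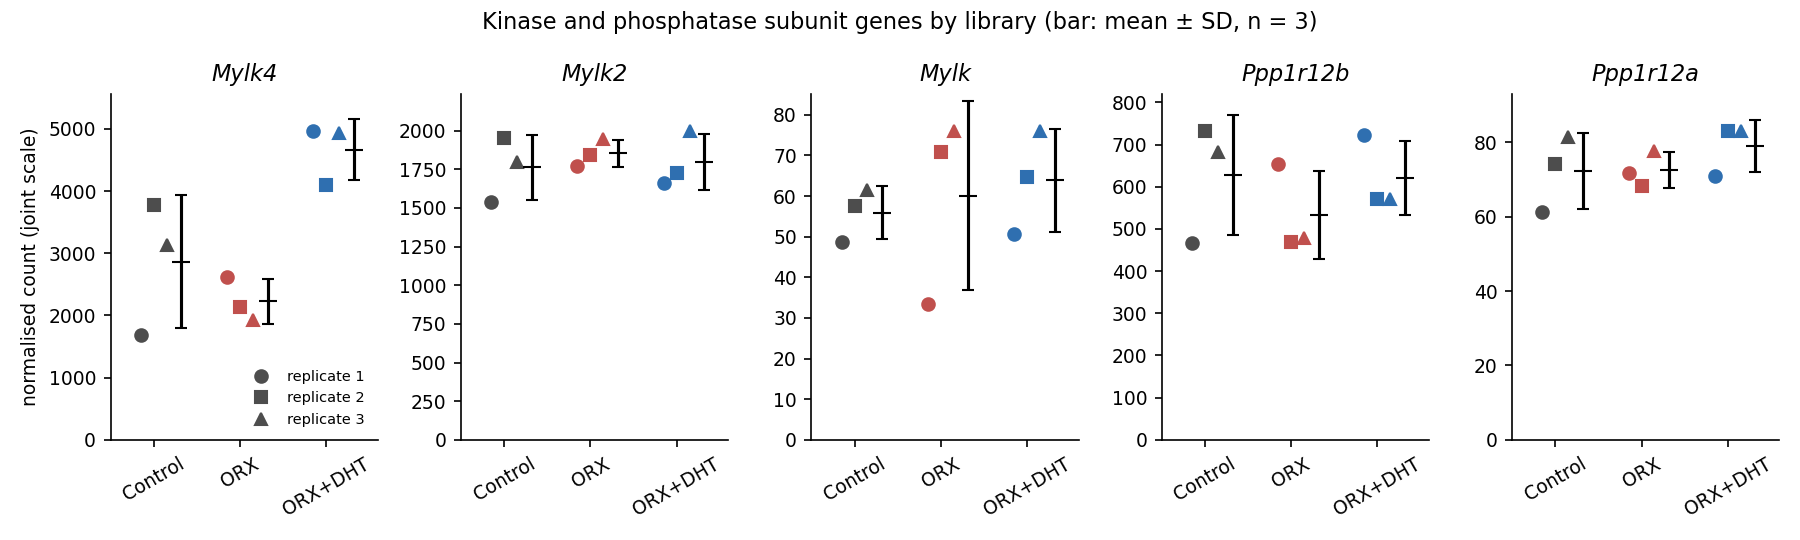
Normalised counts on the joint scale (vertical axes, from 0) of 5 member genes in each of the 9 libraries, by group, with marker shapes for the replicate number and a bar for the mean ± SD of 3. The 3 ORX+DHT libraries of Mylk4, at 4101 to 4971, lie above the other 6, whereas the groups overlap for the other 4 genes.

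Mylk2 (ENSMUSG00000027470, chromosome 2, 152911352 to 152923068, plus strand) encodes the kinase held to act on the fast regulatory light chain. Its normalised counts were 1538, 1949 and 1799 in Control, 1771, 1840 and 1948 in ORX, and 1664, 1723 and 1999.9 in ORX+DHT. The 3 groups overlapped, and Control 1 was the lowest library. The log2 fold change was 0.08 in the castration contrast (95% interval -0.24 to 0.39), -0.05 in the androgen contrast (-0.22 to 0.13) and 0.03 in the outer contrast (-0.29 to 0.35). The limma adjusted p was 0.919, 0.853 and 0.965. The interval of the androgen contrast corresponds to 0.857-fold to 1.09-fold and leaves out a change of the size seen for Mylk4.

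Mylk (ENSMUSG00000022836, chromosome 16, 34745210 to 35002420, plus strand) was a low gene, with 34 to 92 reads per library. Its normalised counts were 48.7, 57.5 and 61.6 in Control, 33.4, 70.8 and 76.1 in ORX, and 50.7, 64.8 and 76.1 in ORX+DHT. ORX 1 was the lowest of the 9 libraries, and the groups overlapped in every comparison. The log2 fold changes were 0.02, 0.15 and 0.18 in the castration, androgen and outer contrasts, with limma adjusted p of 0.99, 0.838 and 0.852. The interval in the androgen contrast ran from -0.36 to 0.67, so changes within that range could not be told from none at this depth and spread. Smooth muscle and pericyte markers, which mark cells known for this kinase, had the sums given above. Antisense genes overlap 4.87% and 1.99% of its exon length, and the strand setting of the counting is not given in the sources used here.

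Mylk3 (ENSMUSG00000031698, chromosome 8, 85324303 to 85386345, minus strand), the cardiac kinase, was listed only with Control and ORX libraries. It had 1 read in Control 3 and 0 in the other 5 libraries. A count of 0 allows up to 3 of the 4755003 ORX reads, for counting error only. It was too low to test and was not analysed in ORX+DHT muscle. Of the genes listed with ORX and ORX+DHT libraries 0 were at 0 in all 6, so Mylk3 may have had 0 reads in ORX+DHT too. Of 5 heart muscle markers 2 were in both tables: the atrial heavy chain Myh6 was at 3.75 to 16.2 normalised counts and the cardiac troponin Tnni3 at 0 to 1.11.

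Ppp1r12b (ENSMUSG00000073557, chromosome 1, 134754658 to 134955942, minus strand) was the more abundant targeting subunit. Its normalised counts were 466, 733 and 682 in Control, 654, 469 and 478 in ORX, and 723, 571 and 570.1 in ORX+DHT. Replicate 1 was the highest library in ORX and in ORX+DHT and the lowest in Control, and the groups overlapped in each comparison. Its log2 fold change in the androgen contrast was 0.23 (95% interval -0.03 to 0.48, limma adjusted p 0.425). It was -0.22 in the castration contrast (-0.65 to 0.21) and 0.00 in the outer contrast (-0.40 to 0.41), with adjusted p of 0.813 and 0.994. Without ORX 1 the value in the androgen contrast was 0.38 and came closest to the threshold (adjusted p 0.0569). An antisense gene overlaps 4.74% of its exon length.

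Ppp1r12a (ENSMUSG00000019907, chromosome 10, 108162193 to 108284475, plus strand) had 49 to 94 reads per library. Its normalised counts were 61.2, 74.1 and 81.4 in Control, 71.7, 68.2 and 77.8 in ORX, and 70.9, 83.1 and 83.0 in ORX+DHT. The groups overlapped in each comparison. The SD was 6.65% of the mean in ORX and 8.87% in ORX+DHT, below the 11.02% and 11.18% that counting alone gives. Log2 fold changes were 0.01 (95% interval -0.38 to 0.40), 0.12 (-0.16 to 0.40) and 0.13 (-0.25 to 0.52) in the castration, androgen and outer contrasts. The limma adjusted p was 0.99, 0.758 and 0.867.

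**Figure D2:**
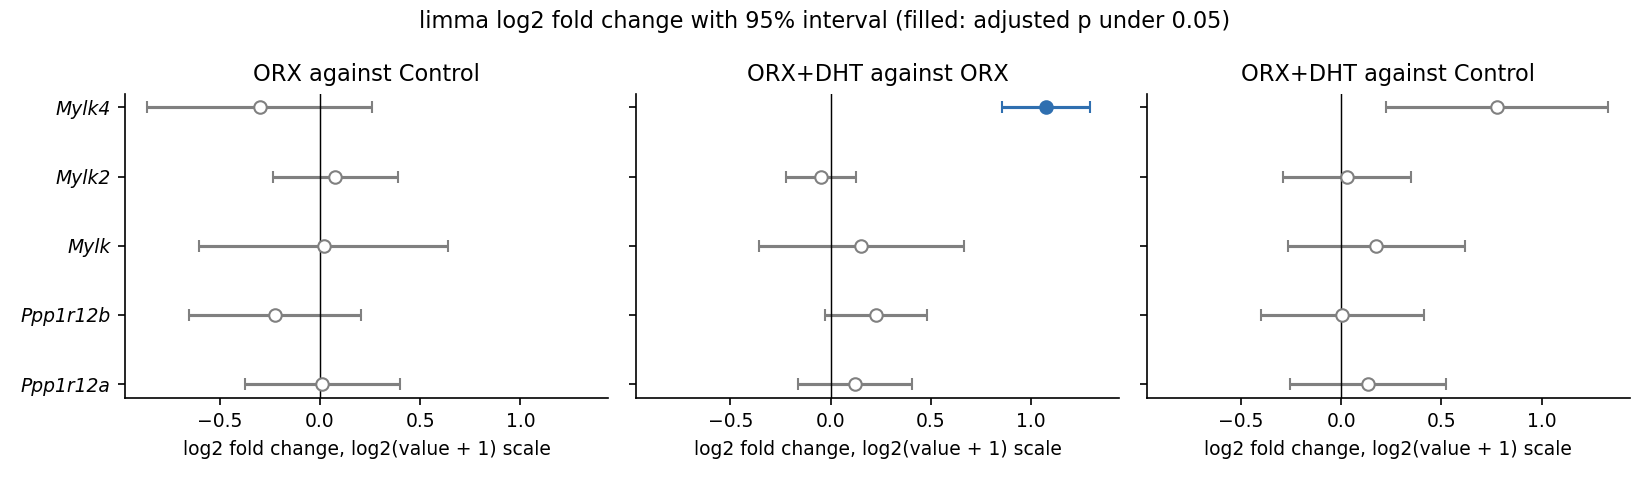
Log2 fold changes (horizontal axes, log2(value + 1) scale) of 5 member genes in the 3 comparisons, as points with 95% intervals from limma, filled where the adjusted p was under 0.05. The filled point is Mylk4 in ORX+DHT against ORX at 1.08, and its interval of 0.86 to 1.30 lies beyond the intervals of the other 4 genes there.

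Over the 5 tested members the median log2 fold change was 0.01, 0.15 and 0.13 in the castration, androgen and outer contrasts. The median of all tested genes was -0.01, 0.01 and -0.01. Each group's libraries enter 2 of the 3 contrasts, so the 3 sets of values are not independent.

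Levels of different genes can be set side by side per kilobase of transcript. With the length of all exons merged, Mylk2 stood at 597 ± 70.5 normalised counts per kilobase for Control, 628 ± 30.3 for ORX and 608 ± 60.8 for ORX+DHT libraries. Mylk4 stood at 373 ± 139, 289 ± 46.6 and 607 ± 63.7. Mylk2 was thus above Mylk4 in each Control and ORX library, whereas in ORX+DHT muscle the difference between them was far below the SD. Ppp1r12b followed at 41.8 ± 9.48, 35.6 ± 6.95 and 41.5 ± 5.85, then Ppp1r12a at 9.01 ± 1.28, 9.05 ± 0.602 and 9.85 ± 0.874, and Mylk at 4.97 ± 0.585, 5.34 ± 2.07 and 5.67 ± 1.13. Over all 9 libraries the ranges of these last 3 genes did not overlap.

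The order of the 2 main kinases depended on the length used. Mylk2 has 1 annotated transcript of 2951 bases, but the merged exons of Mylk4 add up to 7689 bases while its longest coding transcript has 5571. On the latter length Mylk4 stood at 514 ± 192, 399 ± 64.4 and 838 ± 87.9 normalised counts per kilobase. This was above Mylk2 in each ORX+DHT library and also in Control 2. Which Mylk4 transcripts the reads came from cannot be told from gene-level counts. As a share of the summed level per kilobase of Mylk, Mylk2 and Mylk4, Mylk4 made up 37.3% ± 6.86 for Control, 31.3% ± 4.47 for ORX and 49.7% ± 3.09 for ORX+DHT libraries on merged exons. On the longest coding transcript these shares were 44.8% ± 7.35, 38.5% ± 4.94 and 57.6% ± 3.01.

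A ratio of 2 genes within a library does not depend on its scaling factor. Per kilobase of merged exons, the ratio of Mylk4 to Ppp1r12b was 7.06, 10.02 and 8.96 in Control, 7.81, 8.86 and 7.83 in ORX, and 13.4, 14.0 and 16.8 in ORX+DHT. All 3 ORX+DHT libraries lay above the other 6, and Control and ORX overlapped. The geometric mean of this ratio was 1.80-fold higher in ORX+DHT than in ORX and 1.71-fold higher than in Control. The SD of its log2 value in Control was 0.26, against 0.44 for the ratio of Mylk4 to Ppp1r12a. Both Mylk4 and Ppp1r12b were low in Control 1.

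The ratio of Mylk4 to Ppp1r12a was 28.8, 53.1 and 40.2 in Control, 38.1, 32.6 and 25.8 in ORX, and 73.1, 51.4 and 61.9 in ORX+DHT. ORX+DHT did not overlap with ORX but did with Control. The ratio of Mylk4 to Mylk2 was 0.421, 0.742 and 0.669 in Control, 0.568, 0.445 and 0.378 in ORX, and 1.15, 0.914 and 0.945 in ORX+DHT, which lay above all other libraries. The geometric mean ratio of Mylk2 to Ppp1r12b was 14.5 (Control), 17.8 (ORX) and 14.7 (ORX+DHT), with overlap in each comparison. That of Mylk2 to Ppp1r12a was 66.4, 69.5 and 61.7, and here ORX+DHT lay below ORX without overlap, by 0.17 on the log2 scale. For Ppp1r12a counting alone gives a spread of 11.02% of the mean in ORX and 11.18% in ORX+DHT. Among single genes 19.5% had groups without overlap in this contrast. The ratio of Ppp1r12b to Ppp1r12a was 4.59, 3.90 and 4.19, with overlap throughout. These ratios are given as descriptions, without a test.

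**Figure D3:**
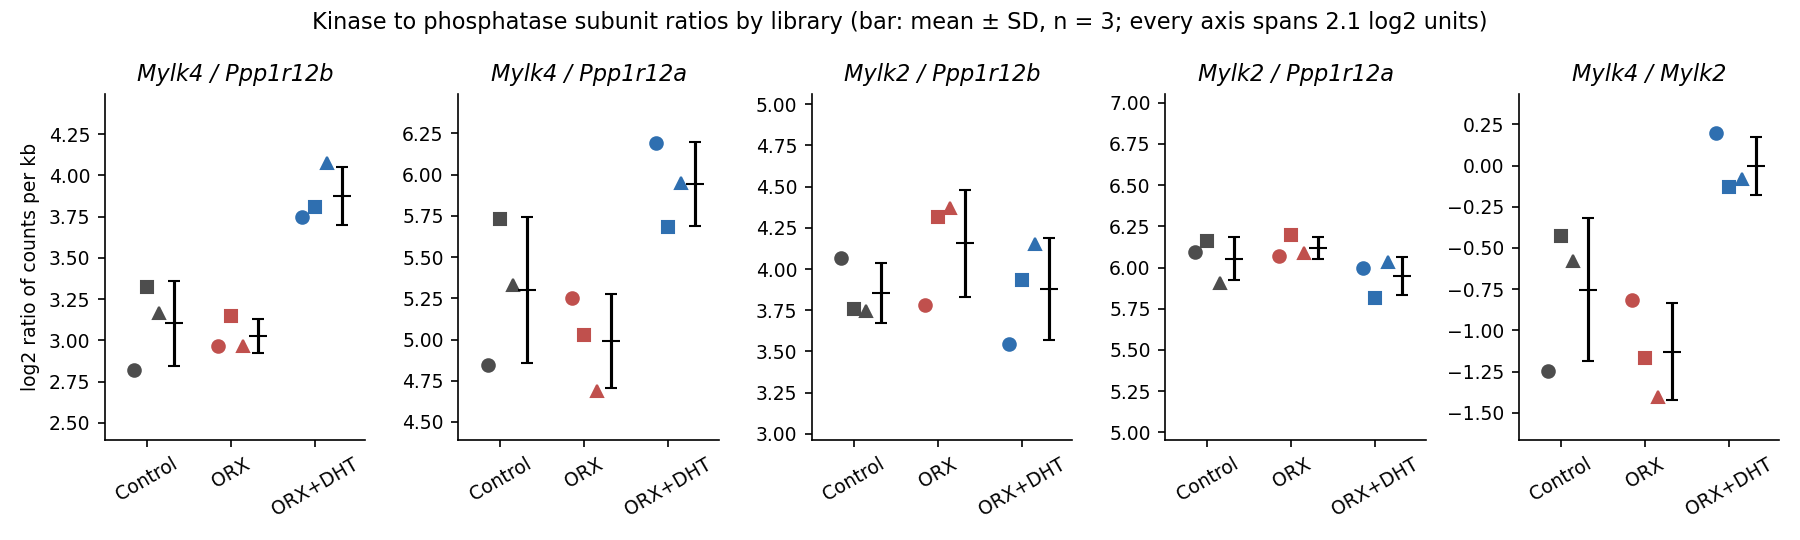
Log2 ratios of normalised counts per kilobase of merged exons (vertical axes, each spanning the same width) between kinase and phosphatase subunit genes and between the 2 main kinases, by library and group, with the mean ± SD of 3. The ratios of Mylk4 to Ppp1r12b and to Mylk2 are higher in the 3 ORX+DHT libraries than in the other 6.

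Members were also compared with each other and with all genes over the 9 libraries, as a description that mixes the group differences with Control 1. On log2 values, Mylk4 and Ppp1r12b had the highest Pearson's r among members (0.71), and Mylk and Ppp1r12b the lowest (-0.39). Among 3795 genes with a mean of at least 50, the 5 most like Mylk4 were Myom1 (r 0.98), for a protein of the M-band, Usp25 (0.98), for a ubiquitin protease, Tsc22d1 (0.97), Nfe2l1 (0.96) and Myh1 (0.95). Their r was 0.97 to 0.98 without Control 1. In the androgen contrast these 5 had values of 0.45, 0.41, 0.50, 0.24 and 0.47 on the log2 scale, all smaller than that of Mylk4. All but Nfe2l1 passed (limma adjusted p 0.00221, 0.0184, 0.0044, 0.0951 and 0.00755), beside 4.08% of all genes. These genes were picked for likeness to Mylk4 over the same libraries, so a difference in this contrast was built into the choice.
The genes most like Mylk2 were Rbm5, Kctd20 and Ccdc47 (r 0.96, 0.89 and 0.89), and those most like Mylk were Tm9sf4, Fbxw2 and Hnrnpd (0.98, 0.91 and 0.87). For Ppp1r12b they were Prrc2b, Nos1, for the neuronal nitric oxide synthase, and Ankrd33b (0.95, 0.94 and 0.93). For Ppp1r12a they were Ccny, Cr1l and Akap8 (0.97, 0.92 and 0.92). None of these 12 genes, also picked over the same libraries, passed in any of the 3 comparisons.

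The other genes of the pathway were read from a list of 36 genes, ordered by role, of which 28 were tested in the androgen contrast. Of these 1 rose and 2 fell by limma, beside 2.38% of all genes called higher and 1.7% called lower. Their median log2 fold change was 0.00 against 0.01 for all genes. At an unadjusted limma p under 0.05 there were 9 of 28, beside 14.3% of all genes. Groups did not overlap for 10 of 28, beside 19.5% of all genes. edgeR called 4 and DESeq2 3 of the 28, beside 4.17% and 2.55% of all genes. The 2 inhibitors of protein phosphatase 1 that could be tested moved in opposite directions. Ppp1r14b, for the inhibitor PHI-1, stood at 30.4, 36.7 and 40.5 normalised counts in ORX and 61.8, 72.5 and 67.2 in ORX+DHT, with 79.9, 45.3 and 38.7 in Control. The ORX and ORX+DHT libraries did not overlap, and Control 1 was the highest of all. In the androgen contrast it had a log2 fold change of 0.89 (SE 0.16) with a limma adjusted p of 0.00283.

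Ppp1r14c, for the inhibitor KEPI, stood at 140, 163 and 147 in ORX and 98.3, 101 and 77.1 in ORX+DHT, with 126, 147 and 140 in Control. All 3 ORX+DHT libraries lay below the other 6. It had a log2 fold change of -0.71 (SE 0.13) in the androgen contrast, with a limma adjusted p of 0.00259, and -0.58 in the outer contrast, where it did not pass (adjusted p 0.66). A non-coding RNA gene on the opposite strand overlaps 29.2% of its exon length, so its counts are uncertain. With all 9 libraries in 1 fit Ppp1r14c passed (adjusted p 0.0254) and Ppp1r14b did not (0.0948).

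The substrates of the kinases are the regulatory light chains, and of 7 listed 3 were tested. Mylpf, the fast skeletal chain, stood at 10660, 11887 and 11810 in ORX and 11272, 13516 and 13889 in ORX+DHT. These groups overlapped, and the log2 fold change of 0.17 did not pass (limma adjusted p 0.429). In Control Mylpf stood at 27521, 13768 and 13253, with Control 1 about double the others. In the castration contrast Mylpf and Myl1, the fast essential chain, had the lowest log2 fold changes of the list, -0.58 and -0.57 (adjusted p 0.684 and 0.675). Myl9 and Myl12a, the smooth and non-muscle chains, had 0.35 and -0.32 in the androgen contrast (adjusted p 0.346 and 0.135). Myl3, the essential light chain of slow and cardiac muscle, was the other gene that fell, from 117, 183 and 153 to 104, 97.6 and 66.2 normalised counts. Its log2 fold change was -0.75 (adjusted p 0.0166), which was lost without ORX 2 (0.126), without ORX+DHT 3 (0.0756) and with all 9 libraries in 1 fit (0.349).

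The catalytic phosphatase subunits Ppp1cb, Ppp1ca and Ppp1cc had log2 fold changes of -0.02, -0.12 and 0.16 in the androgen contrast, and 0 of 3 were called by limma, with 0 at an unadjusted p under 0.05. The highest value after Ppp1r14b was that of the targeting subunit Ppp1r16b, 0.52 (limma adjusted p 0.373).

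In the castration contrast 0 of 28 list genes were called by limma, edgeR or DESeq2, beside 0.0579%, 0.0695% and 0.324% of all genes. At an unadjusted p under 0.05 there were 2 with each tool, beside 7.21% of all genes by limma. The highest values there were those of Ppp1r16b and Rock2, 0.49 and 0.25 (limma adjusted p 0.838 and 0.749). In the outer contrast 0 of 27 were called by limma, edgeR or DESeq2, beside 0.0349%, 0.0465% and 0.151% of all genes. At an unadjusted p under 0.05 there were 3 with each tool, beside 6.48% of all genes by limma. Ppp1r16b and Ppp1r14b were highest, at 1.01 and 0.36, and Myl3 and Ppp1r14c lowest, at -0.85 and -0.58 (adjusted p 0.736, 0.763, 0.736 and 0.66). Ppp1r16b was a low gene, with Control 1 the lowest library of all. It stood at 2.50, 12.2 and 18.9 normalised counts in Control, 12.8, 12.8 and 12.4 in ORX, and 17.2, 22.2 and 16.8 in ORX+DHT. Without Control 1, Ppp1r14c was called in this comparison.

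**Figure D4:**
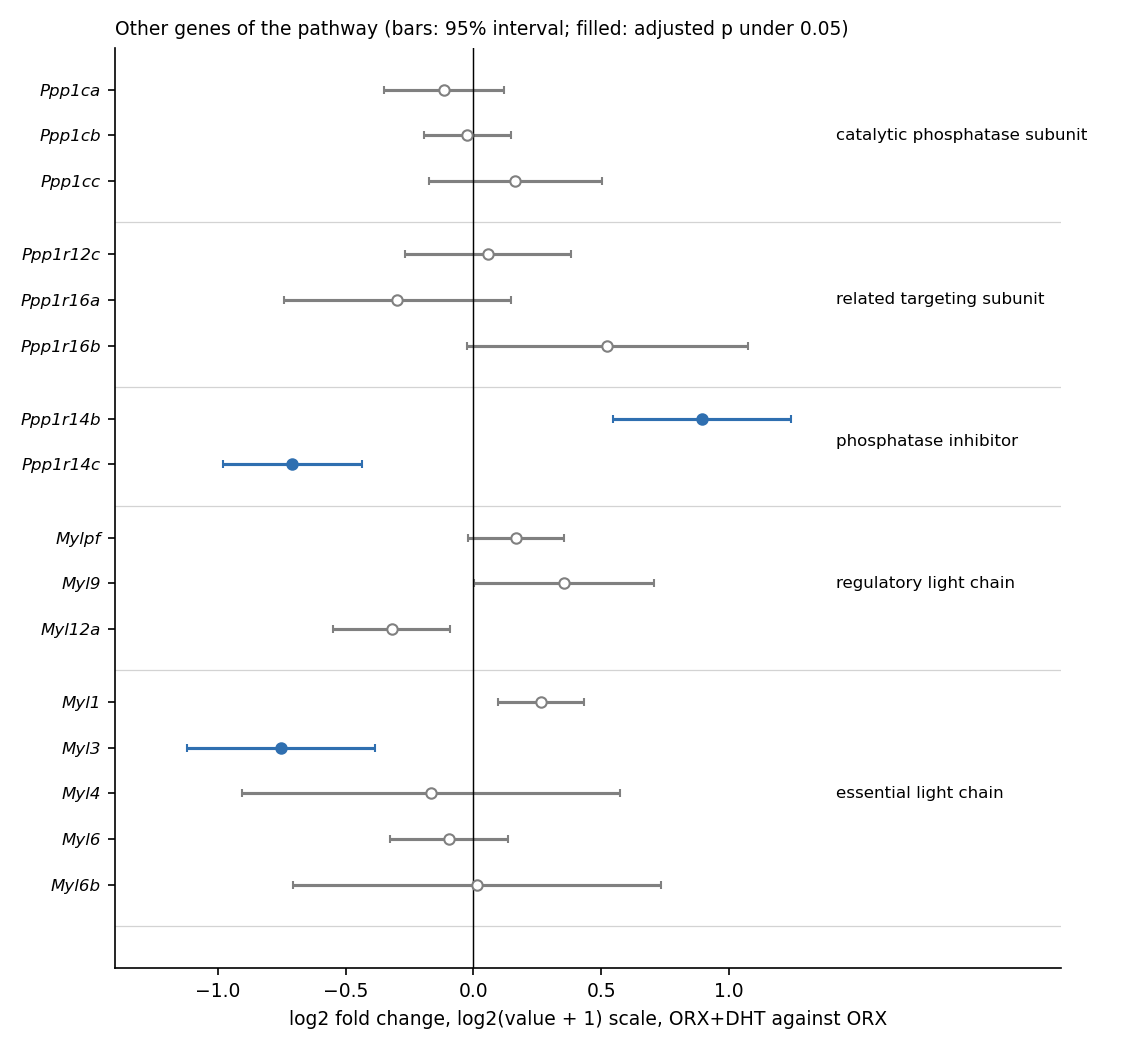
Log2 fold changes (horizontal axis, log2(value + 1) scale) in ORX+DHT against ORX of the tested phosphatase subunits, phosphatase inhibitors and light chains of the pathway list, grouped by role, with 95% intervals from limma and filled points where the adjusted p was under 0.05. The filled points are Ppp1r14b at 0.89, Ppp1r14c at -0.71 and Myl3 at -0.75.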

How the data were processed

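PolyA RNA of 9 tibialis anterior libraries was sequenced with a directional kit, per the labels' protocols. The submitters' processing notes name GRCm38, Trim Galore 0.6.7, HISAT2 2.2.1, featureCounts 2.0.1 and DESeq2 1.36.0. The authors deposited 2 tables of normalised counts (a signal: read counts divided by 1 factor per library), with Control and ORX (14596 genes) or ORX and ORX+DHT (14675 genes), 14300 genes shared. In every column 100% of values were whole multiples of 1 step, within 0.01 read, and gave 1340209 to 1682235 reads per library. Sham columns were matched to the Control labels by replicate number, and 0 columns stayed unmapped. Replicate libraries differed by more than sampling noise. Whether replicates shared a source beyond the label is not given, so p-values measure the spread between these libraries.

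Each comparison was fitted with limma 3.58.1 (R 4.3.3, eBayes with trend) on log2(value + 1), keeping genes whose mean was at least 10, adjusted by Benjamini-Hochberg. The outer contrast used the 14300 shared genes after joint median-of-ratios scaling. Fold changes on this scale understate low genes. Ratios and levels use the joint scale and GENCODE M21 lengths. edgeR 4.0.16 and DESeq2 1.42.0 were run on recovered reads, which in Control 3 (step 0.992) rest on a step close to 1; they called 6 and 28, 366 and 224, and 4 and 13 genes in the 3 comparisons, against 5, 358 and 3 by limma. The fits were also run on simulated data. That simulation held no shift along transcript length, so it cannot show how the fits handle Control 1. All members were named in every comparison, with called pathway genes, the 2 highest and 2 lowest of that list, and the genes of highest Pearson's r with each member (5 for Mylk4, 3 for the others). Some genes of the pathway list are counted in it but not reported here by name. The members and lists were chosen with earlier results of these data known.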

Additional observations from a re-analysis of the deposited data

How the results depend on the processing

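Depth limits Ppp1r12a and Mylk3, the spread between ORX libraries (38.8% of the mean, against 11.98% from counting) limits Mylk in the androgen contrast, and Control 1 limits both comparisons with Control. Of 270 refits of 15 member fold changes, 251 kept direction and side of the threshold and 0 lost a call; in the androgen contrast, Mylk4 passed in all 18. Mylk4 gained a call without Control 1, its log2 fold changes there running from -0.64 to -0.061 in the castration contrast and from 0.43 to 1.01 in the outer contrast across fits without 1 library. The other 17 refits turned the sign of values near 0 that did not pass, and the cause was not tested. Fits without 1 library ran from -0.19 to 0.39 for Mylk, -0.017 to 0.15 for Mylk2 and -0.099 to 0.10 for Ppp1r12a in the castration contrast. They ran from -0.22 to 0.36 for Mylk and -0.13 to 0.0029 for Mylk2 in the androgen contrast, and from -0.065 to 0.11 for Mylk2 and -0.20 to 0.13 for Ppp1r12b in the outer contrast. With length correction Mylk and Ppp1r12a were at -0.018 and -0.052 in the castration contrast, and Ppp1r12b was at -0.061 in the outer contrast, where edgeR gave -0.0083 and DESeq2 -0.013.

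Counts of called genes were 5, 358 and 3 in the castration, androgen and outer contrasts. They were 23, 124 and 11 with all 9 libraries in 1 fit, 28, 224 and 13 with DESeq2, and 24, 419 and 21 with length correction. With no filter 16 genes were called in the castration contrast, and after quantile normalisation 6 in the outer contrast. The cause was not tested. Fits without 1 library gave 1 to 51, 223 to 350 and 0 to 66, the most of the first and last without Control 1. The 0 of limma, without ORX+DHT 3, came with 318 of 8608 tested genes at an unadjusted p under 0.05, against 557 of 8595 in the main fit.

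With the replicate number as a block, 571 genes were called in the androgen contrast, and no member's call changed in any comparison. In that comparison each library's deviations correlated best with those of its own number (r 0.063, 0.061 and 0.151), as a hint from the data, and in the castration contrast they did not (-0.165, 0.06 and -0.106), so the numbers were not taken as pairs.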
